A study of Mus musculus with 6 samples.

Results

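The 10 genes described here belong to the nerve injury and axon growth programme and were followed in the trigeminal ganglion, which holds the cell bodies of sensory neurons of the face and the meninges. The set held Atf3, Sprr1a, Gap43, Basp1, Sox11, Gadd45a, Stmn2, Stmn4, Marcks and Marcksl1, which are 10 of the 17524 genes in the deposited table. They were chosen by name, with the NTG and vehicle values of these same libraries already known, so the differences between the groups are given here as a description and without a test of the members. All 10 were in the table, and all 10 passed the filter on low values (1 normalised read or more in 3 or more libraries). Messenger RNA came from the ganglia of wild-type mice, with 3 libraries of a vehicle group and 3 of an NTG group. The labels do not spell out NTG, which usually means nitroglycerin, a donor of nitric oxide, in mouse migraine studies. The sources used here give no dose, number of doses or time after treatment, and no label says whether a library is 1 mouse or a pool.

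When the peripheral axon of a sensory neuron is cut or crushed, the cell body switches on a growth programme. Transcription factors such as ATF3, JUN and SOX11 come up first, and SPRR1A, GAP43 and other growth cone proteins follow. GAP43, BASP1 (also called CAP23), MARCKS and MARCKSL1 are acidic proteins that sit on the inner face of the plasma membrane and bind phosphoinositides, calmodulin and actin, and GAP43, MARCKS and MARCKSL1 are classical substrates of protein kinase C. The stathmins STMN2 and STMN4 are anchored to membranes and bind tubulin, and STMN2 is among the abundant messages of sensory neurons. Sensory ganglia hold neurons, satellite glia and Schwann cells, and in bulk RNA fewer cells of a type and less RNA per cell cannot be told apart.

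The injury regulators Atf3, Sox11 and Gadd45a and the injury effector Sprr1a had overlapping values in the 2 groups. The clearest differences were among the membrane proteins of the growth cone. Basp1 in NTG was 0.479 of its vehicle level and Marcks 0.561. Marcksl1 was at 0.722 and Gap43 at 0.854. Stmn2 was 12.0% higher in NTG, and Stmn4 was 11.3% lower. These values are ratios of group means over 3 libraries each.

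Counts of members past the genome-wide threshold (limma-trend over 17475 genes, Benjamini-Hochberg adjusted p under 0.05) were 1 higher and 4 lower of 10. Of all genes tested, 25.8% passed, 12.3% higher in NTG and 13.5% lower. Gap43, Basp1, Marcks and Marcksl1 made up the lower members and Stmn2 the higher one. All 3 NTG libraries lay below all 3 vehicle libraries for 5 members, the 4 just named and Stmn4, and above them for Stmn2. Of all genes, 20.0% had NTG entirely lower and 19.7% entirely higher. Nothing is read from these counts, because the members were chosen with this contrast known. The median log2 fold change of the members was -0.19, against 0.00 over all genes tested.

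**Figure D1:**
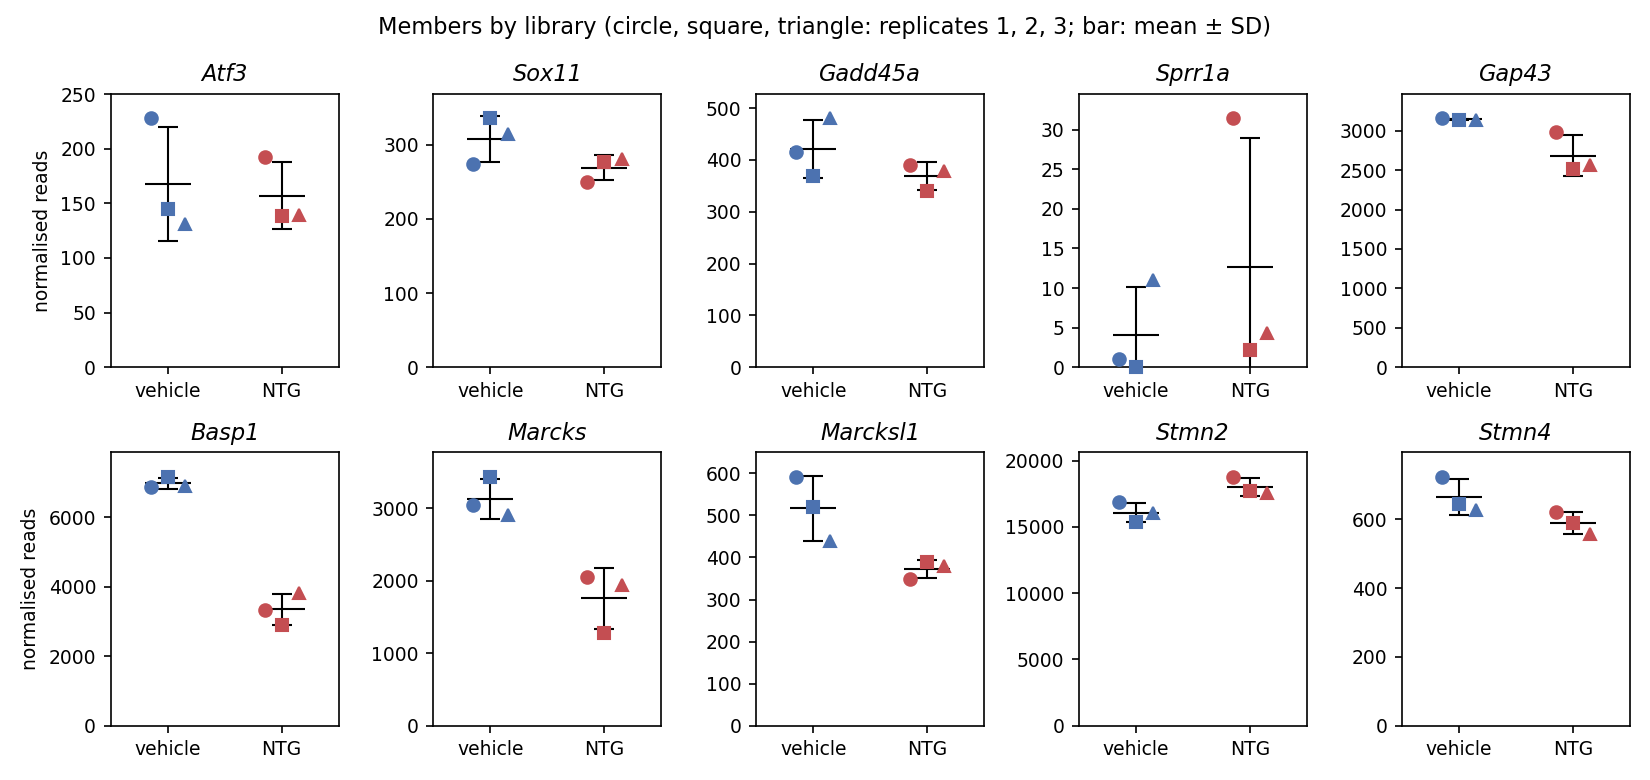
Normalised reads of the 10 genes in each library (y axis, from 0, a scale of its own in each panel), with vehicle in blue, NTG in red, symbols for replicates 1 to 3 and bars for the mean ± SD of 3 libraries (the lower part of the Sprr1a bar in NTG runs below 0 and is cut). Basp1 sits between 6875 and 7166 in vehicle and between 2906 and 3810 in NTG, while the groups overlap for Atf3, Sox11, Gadd45a and Sprr1a.

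Levels can be compared between genes only per length, so the recovered reads were scaled by transcript length and library size to RPKM, a length-corrected level. In vehicle the order was Stmn2 (376 ± 20.2 RPKM, SD, n = 3), Basp1 (182 ± 3.29), Gap43 (107 ± 1.19), Marcks (37.4 ± 3.13), Stmn4 (25.1 ± 2.14), Gadd45a (16.7 ± 2.22), Marcksl1 (15.6 ± 2.41), Atf3 (4.10 ± 1.31), Sox11 (1.79 ± 0.168) and Sprr1a (0.242 ± 0.363). Gadd45a and Marcksl1 were neighbours that did not differ beyond their spread. In NTG the ranks just below Stmn2 were no longer clear. Basp1 (88.2 ± 11.7 RPKM) and Gap43 (92.5 ± 9.77) lay within their spread of each other, and so did Marcks (21.2 ± 5.12) and Stmn4 (22.5 ± 1.41). The levels of Stmn2 (425 ± 20.0 RPKM) stayed above all other members, and Atf3 (3.87 ± 0.807), Sox11 (1.58 ± 0.0844) and Sprr1a (0.773 ± 1.003) stayed at the bottom. Gadd45a (14.8 RPKM) and Marcksl1 (11.4) lay between these in NTG, as in vehicle.

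Atf3 encodes a stress-induced bZIP transcription factor, and its appearance in the nucleus is the usual histological mark of an injured sensory neuron. The gene lies on the minus strand of chr1:191170296-191183333 (GRCm38, as are all positions given here). Atf3 had 228, 145 and 131 normalised reads in vehicle replicates 1 to 3 and 193, 139 and 140 in NTG. The highest library was vehicle replicate 1, and the lowest was vehicle replicate 3. The group means were 168 ± 52.2 and 157 ± 31.0, and the log2 fold change was -0.07 ± 0.19 (SE). The difference between the group means of Atf3 was smaller than the spread between libraries of 1 group.

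The 3 genes outside the set that followed Atf3 most closely over the 6 libraries, by the root-mean-square difference of centred log2 values among 10557 genes with a mean of at least 10 CPM (counts scaled to library size), were Gbp2 (0.06), Kcnk5 (0.09) and Dek (0.11). Gbp2 had 478, 314 and 249 normalised reads in vehicle and 382, 279 and 282 in NTG. Like Atf3, all 3 genes were highest in vehicle replicate 1 and, among the NTG libraries, highest in NTG replicate 1. That likeness follows from how they were chosen and is given as a description only. The pattern shared by these genes was a difference between libraries within each group.

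Sox11 encodes an SRY-box transcription factor of developing and regenerating neurons, on the minus strand of chr12:27334268-27342718. It had 275, 336 and 315 normalised reads in vehicle and 249, 276 and 281 in NTG. NTG replicates 2 and 3 overlapped vehicle replicate 1, and the means were 308 ± 31.0 and 269 ± 17.0. The log2 fold change was -0.19 ± 0.12. Gadd45a, a DNA damage and stress response gene that is also induced by axotomy, lies on the minus strand of chr6:67035096-67037407. Gadd45a had 415, 368 and 480 normalised reads in vehicle and 390, 339 and 379 in NTG, with a log2 fold change of -0.18 ± 0.11. Its groups overlapped as well. The gene shares 809 bases with E230016M11Rik on the opposite strand, which stood at 0.102 of the level of Gadd45a, and without a stated strand setting their reads cannot be told apart.

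Sprr1a encodes a small proline-rich protein of the cornified envelope in skin, and in sensory neurons it is known as a message that is nearly absent until the axon is injured. It lies on the minus strand of chr3:92483954-92485881. Vehicle replicates 1 to 3 held 1, 0 and 10 reads of Sprr1a, and NTG replicates 1 to 3 held 30, 2 and 5, or 1.09, 0 and 11.02 against 31.4, 2.13 and 4.33 normalised reads. NTG replicate 1 alone stood high, and vehicle replicate 3 was above the other NTG libraries. The limit that a count of 0 allows, set at 3 reads, corresponded to 2.60 to 3.30 normalised reads in these libraries and covers counting error only. The log2 fold change of 1.48 ± 1.03 ranged from 0.48 without NTG replicate 1 to 2.50 without vehicle replicate 3. It was 0.70 without vehicle replicate 2 and 2.17 without NTG replicate 2, so its size depended on single libraries of both groups.

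Because skin also makes Sprr1a, keratinocyte markers were read in the same libraries. The 12 names written held the loricrin gene both as Lor, its symbol in the table, and as Loricrin, which matched nothing. Of these names 7 were in the table, and their summed level was 14.8 to 34.8 CPM in vehicle and 11.7 to 14.8 CPM in NTG. Vehicle replicate 3, with 11.02 normalised reads of Sprr1a, had 62.8 of Krt5, 63.9 of Krt14 and 154 of Lor, the keratins of basal epidermis and the cornified envelope protein loricrin. In NTG replicate 1, with 31.4 normalised reads of Sprr1a, Krt5 was at 0, Krt14 at 3.14 and Lor at 6.29. Krt5 was at 0 in all 3 NTG libraries. The sum over all 7 markers was 11.7 CPM in NTG replicate 1, mostly from markers not named here, and 34.8 CPM in vehicle replicate 3. Among the 5 markers tested, 0 rose and 1 fell, with log2 fold changes from -1.70 to 0.55. The part of keratinocyte RNA in the Sprr1a values was not tested.

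The 250 bases before the annotated start of Sprr1a are shown because AP-1, the dimer of JUN and FOS or ATF family proteins, is closely tied to the injury programme. They span chr3:92485882-92486131 on the minus strand (RefSeq, GRCm38.p6). Capitals mark letters that match the AP-1 motif TGACTCA, searched on both strands, where its reverse complement reads TGAGTCA.
Sprr1a: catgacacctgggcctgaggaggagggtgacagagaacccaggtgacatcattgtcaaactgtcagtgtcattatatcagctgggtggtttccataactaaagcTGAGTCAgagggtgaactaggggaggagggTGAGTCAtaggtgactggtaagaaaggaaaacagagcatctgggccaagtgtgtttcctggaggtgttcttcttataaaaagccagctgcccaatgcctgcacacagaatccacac
The matches begin 146 and 116 bases before the start. Of 32851 windows of the same length in the RefSeq promoter table, 4.46% held at least 1 such match and 0.167% held at least 2. Windows were found for 6 members, Atf3, Sprr1a, Basp1, Sox11, Gadd45a and Marcksl1, and Sprr1a was the 1 of them with an AP-1 match. None of the 6 held an exact match to the cyclic AMP response element TGACGTCA, which 1.55% of windows held. Variants of either motif were not searched, so a window without a match may still hold a near match. A match is a description of letters and no measure of binding.

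Gap43 encodes the growth-associated protein of axon terminals, on the minus strand of chr16:42248552-42340651. Its vehicle libraries were almost equal, with 3157, 3137 and 3135 normalised reads, and NTG had 2978, 2512 and 2565. The highest NTG library was below the lowest vehicle library. The means were 3143 ± 11.9 and 2685 ± 256, and the log2 fold change was -0.23 ± 0.06. NTG replicate 1 was nearest to vehicle. Gap43 missed the threshold without NTG replicate 2, at a log2 fold change of -0.19. The genes most like Gap43 over the 6 libraries were Sardh (0.03), Mlst8 (0.03) and Pole4 (0.03) on the same root-mean-square measure. Sardh had 531, 535 and 536 normalised reads in vehicle and 508, 450 and 446 in NTG.

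Basp1 encodes brain acid-soluble protein, a relative of GAP43 by function rather than by sequence, on the minus strand of chr15:25363277-25413764. It had 6875, 7166 and 6914 normalised reads in vehicle and 3328, 2906 and 3810 in NTG. The groups were far apart, with 6985 ± 158 against 3348 ± 452, a vehicle level 2.09 times that in NTG. The log2 fold change was -1.07 ± 0.08, and 256 of the 17475 genes tested (1.46%) had a lower one. The ratio of Basp1 to Gap43 within a library, which does not depend on scaling, was 2.18, 2.28 and 2.21 in vehicle and 1.12, 1.16 and 1.49 in NTG. Basp1 thus lay further below vehicle than Gap43 did in each NTG library.

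Marcks encodes the myristoylated alanine-rich protein kinase C substrate, on the minus strand of chr10:37133243-37138926. It had 3043, 3433 and 2909 normalised reads in vehicle and 2048, 1280 and 1937 in NTG. NTG replicate 2 was the lowest library, and the means were 3129 ± 272 and 1755 ± 415. The log2 fold change was -0.86 ± 0.21, with a wider error than that of Basp1. It ranged from -0.99 to -0.65 when each library was left out in turn. Marcks missed the threshold without vehicle replicate 1 (-0.88), vehicle replicate 2 (-0.79), vehicle replicate 3 (-0.91) or NTG replicate 3 (-0.95). Its paralog Marcksl1, on the plus strand of chr4:129513581-129515981, had 592, 520 and 438 normalised reads in vehicle and 349, 390 and 381 in NTG, with a log2 fold change of -0.46 ± 0.11. All NTG libraries lay below vehicle. The ratio of Marcks to Marcksl1 was 6.13 ± 0.85 in vehicle and 4.75 ± 1.33 in NTG and overlapped between the groups.

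The stathmin messages differed in direction. Stmn2 (SCG10), on the plus strand of chr3:8509527-8561604, had 16876, 15382 and 16023 normalised reads in vehicle and 18783, 17751 and 17558 in NTG. All NTG libraries were above all vehicle libraries, and the log2 fold change was 0.16 ± 0.05. Stmn2 missed the threshold without NTG replicate 1 and without vehicle replicate 2, at a log2 fold change of 0.13 each. Stmn4 (RB3), on the plus strand of chr14:66344210-66361680, had 724, 643 and 627 normalised reads in vehicle and 620, 590 and 558 in NTG, with a log2 fold change of -0.17 ± 0.09. The lowest vehicle library and the highest NTG library differed by less than the spread within either group. The ratio of Stmn2 to Stmn4 was 23.3, 23.9 and 25.6 in vehicle and 30.3, 30.1 and 31.4 in NTG.

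Base composition moved with these differences and differs widely between the members. Over protein-coding genes the median GC content of the coding sequence was 53.2%. Marcks had 75.4% and Basp1 74.2%, and of 14712 genes only 3 had a higher value than Marcks and 11 a higher value than Basp1. Sox11 had 67.6%, Sprr1a 63.7%, Marcksl1 62.7%, Gadd45a 59.0% and Gap43 55.6%. Stmn2 (51.5%), Atf3 (50.7%) and Stmn4 (50.5%) lay below the median. The whole transcript of Marcks had 45.1%, with 34.3% in its 3' untranslated region.

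The GC-richest 120-base stretch of coding sequence within 1 exon is shown for the 3 members with the lowest log2 fold changes and for Stmn2, which was higher in NTG, with G and C in capitals. The stretches are chr15:25364494-25364613 (minus strand), chr10:37136351-37136470 (minus strand), chr4:129515002-129515121 (plus strand) and chr3:8554793-8554912 (plus strand), read from GRCm38 by the GENCODE annotation.
Basp1: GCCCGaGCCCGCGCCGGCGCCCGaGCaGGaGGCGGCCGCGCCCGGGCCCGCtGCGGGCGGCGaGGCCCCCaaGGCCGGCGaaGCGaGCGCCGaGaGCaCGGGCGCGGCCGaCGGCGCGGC
Marcks: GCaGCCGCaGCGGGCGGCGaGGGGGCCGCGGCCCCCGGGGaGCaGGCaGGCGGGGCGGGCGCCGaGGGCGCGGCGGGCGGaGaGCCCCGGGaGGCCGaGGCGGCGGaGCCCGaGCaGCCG
Marcksl1: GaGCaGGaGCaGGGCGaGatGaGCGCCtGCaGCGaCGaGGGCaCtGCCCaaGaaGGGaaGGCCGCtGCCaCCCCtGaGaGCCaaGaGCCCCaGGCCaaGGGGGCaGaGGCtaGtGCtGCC
Stmn2: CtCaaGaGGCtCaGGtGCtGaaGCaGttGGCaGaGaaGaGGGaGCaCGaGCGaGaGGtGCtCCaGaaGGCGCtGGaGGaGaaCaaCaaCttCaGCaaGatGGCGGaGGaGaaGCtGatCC
GC made up 87.5% of the Basp1 stretch and 88.3% of the Marcks stretch. It made up 69.2% of the Marcksl1 stretch and 57.5% of the Stmn2 stretch. The stretches of Basp1, Marcks and Marcksl1 had more GC than that of Stmn2. No stretch is shown for Gap43, which was also lower in NTG, or for Sox11 and Sprr1a, which are GC-rich and did not pass.

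Across all protein-coding genes, relative to the mean of all 6 libraries, values in vehicle leaned up with coding GC and values in NTG leaned down. The slope of a library's deviation from that mean was 0.11, 0.19 and 0.16 log2 units per 10 percentage points in vehicle and -0.21, -0.16 and -0.08 in NTG. Slopes taken this way sum to 0, so they show a difference between the groups and no separate trend in either. Of 108 genes with a coding GC of at least 70%, a bound set after the data were seen, 60.2% fell and 0 rose in the limma fit. Their median log2 fold change was -0.58, and 7 of them were lower than Basp1 and 18 lower than Marcks. Composition and treatment went together in all 6 libraries, so they cannot be told apart from these data alone.

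**Figure D2:**
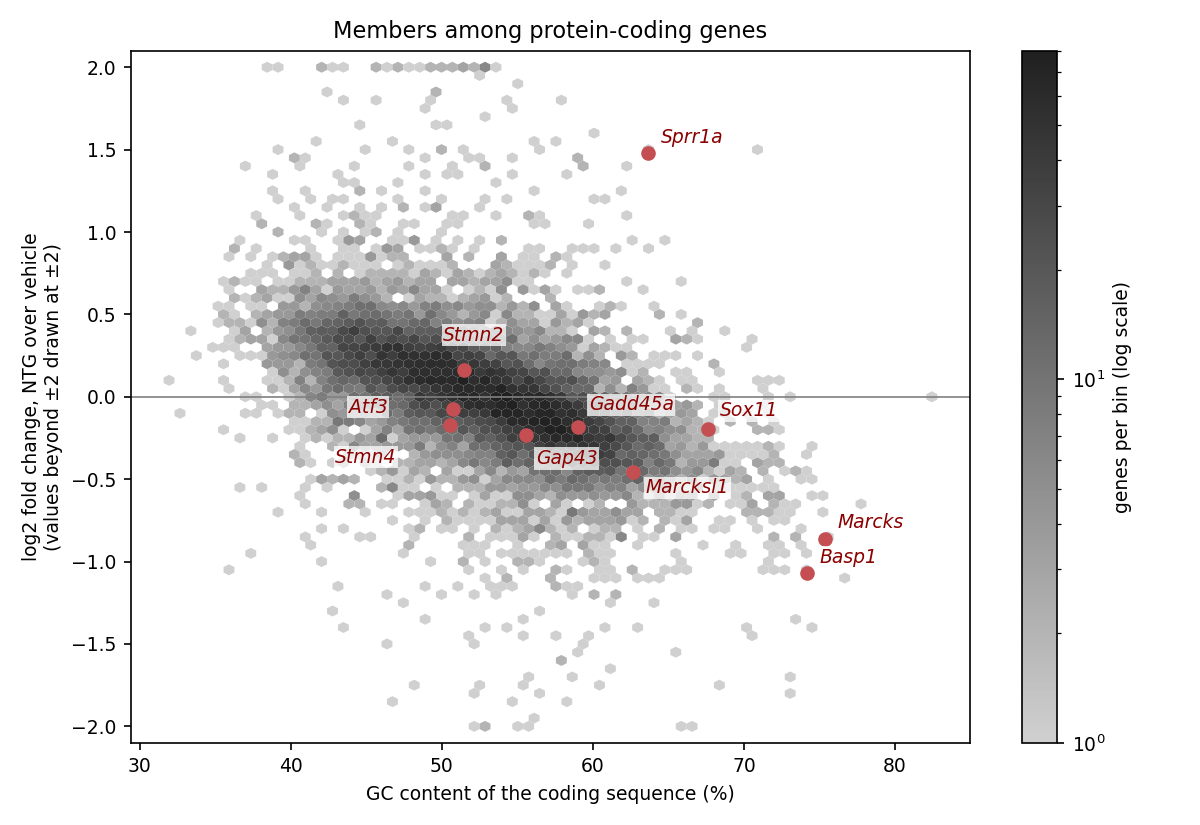
Log2 fold change of NTG over vehicle (y axis, values beyond 2 drawn at the edge) against the GC content of the coding sequence in percent (x axis) for protein-coding genes, binned in grey by number of genes on a log scale, with the 10 genes in red. Basp1 at 74.2% and Marcks at 75.4% lie at the GC-rich end, where most genes are below 0.

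Each library's smooth trend over composition and length was then removed before the same limma fit. With the trend over GC and length of the whole transcript removed, 9.35% of 16071 genes passed (3.90% higher, 5.45% lower), and the members were 0 higher and 2 lower, Gap43 and Basp1. With the trend over GC and length of the coding sequence removed, 10.7% of 14663 genes passed (4.47% higher, 6.23% lower), and the members were 0 higher and 2 lower, Basp1 and Stmn4. Basp1 stood at -0.89 on the transcript scale and -0.47 on the coding scale. It passed in 26 of 26 alternatives, which were changes of processing and fits with a library left out. Marcks was at -1.04 on the transcript scale and -0.23 on the coding scale, and it passed on neither. The trend over the coding sequence alone amounted to -0.63 for Marcks and -0.60 for Basp1.

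The other members are given on the transcript scale and then on the coding scale. Marcksl1 went from -0.46 to -0.24 and -0.16. Gap43 stood at -0.29 and -0.15, and Stmn2 at 0.01 and 0.11. Stmn4 stood at -0.08 and -0.27. Sox11, whose coding sequence is GC-rich and whose long 3' untranslated region is not, turned from -0.35 on the transcript scale to 0.19 on the coding scale. Gadd45a likewise stood at -0.24 and 0.03, while Atf3 stood at -0.04 and -0.15 and Sprr1a at 1.65 and 1.82. Over the 26 alternatives, which include fits with a library left out, Atf3 was positive in 6 and negative in 20. Each positive value came from a fit without vehicle replicate 1, NTG replicate 2 or NTG replicate 3. Gap43 passed as lower in 23 of the 26, Marcksl1 in 17 and Marcks in 10, and Stmn2 passed as higher in 14.

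**Figure D3:**
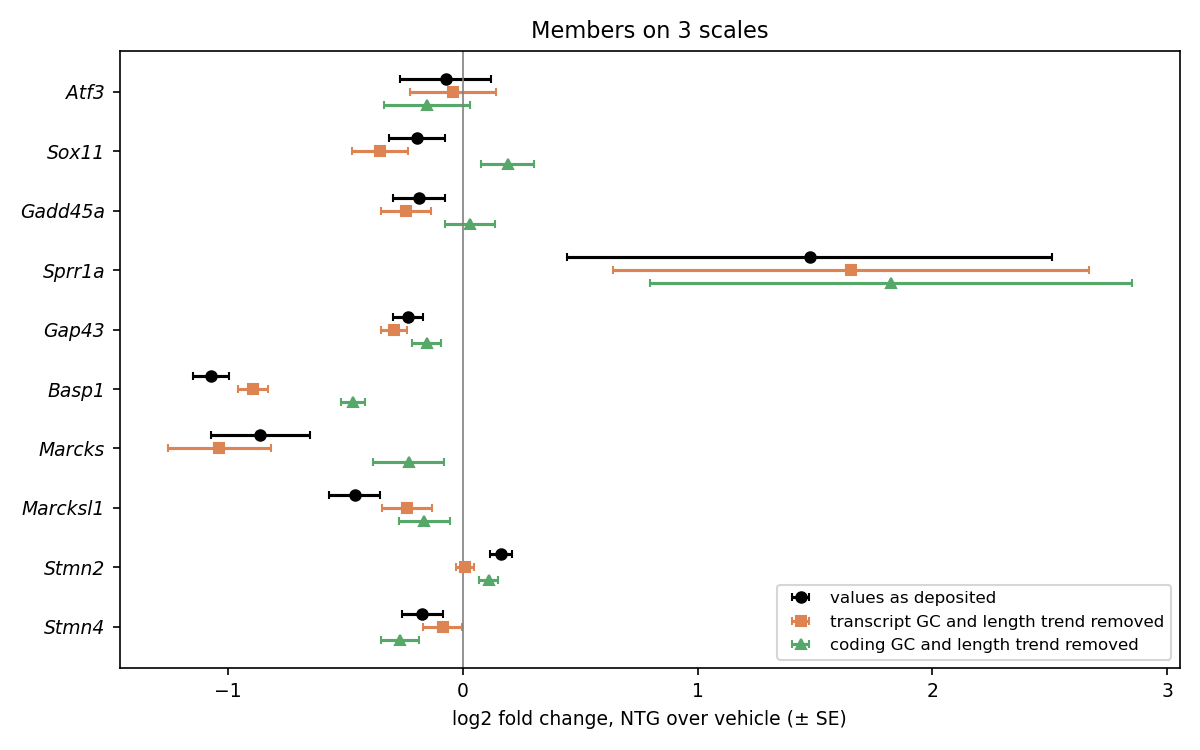
Log2 fold change of NTG over vehicle (x axis, ± SE) of each gene on the values as deposited, with the trend over transcript GC and length removed, and with the trend over coding GC and length removed. Basp1 lies at -1.07, -0.89 and -0.47, Marcks at -0.86, -1.04 and -0.23, and Sox11 changes sign between the adjusted scales.

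Other genes of the injury programme were read from lists written with earlier results of these libraries known, and each list is described by its counts and median. Of 32 further injury-induced genes tested, 5 rose, 8 fell and 19 did not pass, with a median log2 fold change of -0.04. Jun, the AP-1 subunit that partners ATF3, fell from 4340 ± 123 to 3101 ± 126 normalised reads, a log2 change of -0.49 ± 0.06 (limma adjusted p = 6.17e-06). Its fall remained after removal of the transcript trend (-0.33, limma adjusted p = 7.27e-05) and of the coding trend (-0.20, limma adjusted p = 0.0121). Vgf, a neuropeptide precursor, fell by 0.54 on the log2 scale, and Itga7, an integrin chain of regenerating axons, by 0.33. Chl1, an adhesion molecule of the L1 family, rose from 1343 ± 78.9 to 1742 ± 116 normalised reads (0.37 ± 0.07, limma adjusted p = 0.000529). Chl1 passed on neither adjusted scale (0.06 and 0.10), and Vgf and Itga7 passed on the coding scale (-0.21 and -0.18) but not on the transcript scale (-0.09 and -0.11). On the transcript scale the list counted 3 rises and 2 falls, and on the coding scale 3 rises and 6 falls. Anxa2 rose as deposited (0.20) and on the transcript (0.25) and coding (0.13) scales. Hspb1 did not pass as deposited (0.05) but passed as higher on both adjusted scales (0.38 and 0.39). Csf1 fell as deposited (-0.51) and on the transcript (-0.39) and coding (-0.47) scales.

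Gal, which encodes galanin and is strongly induced by axotomy, did not pass, with 137 ± 22.6 normalised reads in vehicle against 111 ± 9.02 under NTG. Genes that injured sensory neurons usually lower counted 4 rises and 3 falls of 16, with a median of 0.08. The potassium channel genes Kcna1 (0.15) and Kcna2 (0.14) rose, and the neurofilament genes Nefm (-0.19) and Nefh (-0.22) fell. After the transcript trend was removed, 0 rose and 1 fell in this list, Nefm (-0.10, limma adjusted p = 0.0234). Kcna2 then stood at -0.05 and Nefh at 0.02, on the other side of 0. On the coding scale 2 rose and 0 fell, the risers being Kcna1 (0.14, limma adjusted p = 0.0416) and the neurofilament gene Nefl (0.27), while Nefm did not pass (-0.10, limma adjusted p = 0.0599).

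Close relatives of the members included Jdp2, a bZIP relative of Atf3, the SoxC genes Sox4 and Sox12, and Gadd45g. These were the 4 that fell among 9 tested of 14 written, at -0.32, -0.41, -0.56 and -0.38, and 0 rose, with a list median of -0.13. Sox12 went from 948 ± 23.8 to 649 ± 90.4 normalised reads (limma adjusted p = 0.000158). On the transcript scale Sox4 (-0.41, limma adjusted p = 0.00421) and Sox12 (-0.27, limma adjusted p = 0.0365) still passed as lower. On the coding scale none of the 4 passed, and Sox4 was at -0.05 and Sox12 at -0.04. Stmn1 (0.12), Stmn3 (0.01) and Gadd45b (0.04) did not pass as deposited, and Stmn3 passed as higher on the transcript (0.21) and coding (0.16) scales. Atf5, a bZIP gene at -0.13 as deposited, also passed as higher on both (0.21 each).

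Among 25 genes of the growth cone and axon cytoskeleton, 5 rose and 6 fell, with a median of -0.03. Crmp1, a collapsin response mediator, fell from 2251 ± 135 to 1668 ± 151 normalised reads (-0.43 ± 0.07, limma adjusted p = 0.000171) and passed on both adjusted scales (-0.26 and -0.30). The actin-binding genes Pfn1 (-0.33) and Fscn1 (-0.38) fell, and the small GTPase gene Cdc42 rose (0.25). Fscn1 and Cdc42 passed on neither adjusted scale. Tubb3, a neuronal beta-tubulin, had a log2 fold change of -0.03 and did not pass as deposited, but passed as higher on the transcript (0.19) and coding (0.13) scales. The kinase, calmodulin and calcineurin genes whose products act on GAP43 and MARCKS counted 3 rises and 2 falls of 15, with a median of 0.07. Ppp3ca, the calcineurin catalytic subunit, fell from 12287 ± 682 to 10010 ± 336 normalised reads (-0.29 ± 0.05, limma adjusted p = 0.000259), and its fall was larger on the transcript (-0.44) and coding (-0.48) scales. Calm3 fell (-0.15), and Calm2 (0.15) and Ppp3r1 (0.21) rose, but all 3 changed sign on the transcript scale.

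The axon injury signalling genes of the DLK and JNK kinases, which lie upstream of Jun and Atf3, counted 3 rises and 4 falls of 14, with a median of 0.07. Map2k7, a JNK kinase, fell (-0.36 ± 0.06, limma adjusted p = 0.000192) and passed on both adjusted scales. Mapk8, which encodes JNK1, rose (0.34) but passed on neither adjusted scale, Spag9, a JNK scaffold, rose (0.35), and the scaffold gene Mapk8ip1 fell (-0.27) but was at 0.05 on the transcript scale. Brakes on axon growth counted 3 rises and 8 falls of 18, with a median of -0.08. Rtn4r, the Nogo receptor gene, fell from 294 ± 14.2 to 183 ± 15.1 normalised reads (-0.69 ± 0.13, limma adjusted p = 0.000441), and Rtn4rl1, Lingo1 and Ptprs fell by 0.31, 0.31 and 0.24 on the log2 scale, of which Lingo1 and Ptprs changed sign on the transcript scale. Of these, Rtn4r passed on the coding scale (-0.46, limma adjusted p = 0.015) and missed the threshold on the transcript scale (-0.30, limma adjusted p = 0.138).

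Glia have an injury response of their own, and 1 of its 11 genes tested rose and 4 fell, with a median of -0.18. Sox2 fell from 620 ± 21.9 to 367 ± 33.7 normalised reads (-0.76 ± 0.10, limma adjusted p = 1.5e-05) and passed on both adjusted scales (-0.79 and -0.40). The gene lies within the span of the non-coding gene Sox2ot, whose reads could be counted with it. Olig1 (-0.50) and Ngfr (-0.30) fell and passed on neither adjusted scale, and Serpina3n rose (0.23) and passed on the transcript scale (0.26). After removal of the transcript trend the counts were 2 rises and 2 falls among relatives of the members, 3 and 3 in the cytoskeleton list, 1 and 3 among kinase, calmodulin and calcineurin genes, 1 and 1 in the DLK and JNK list, 0 and 4 among brakes on growth, and 1 and 1 in the glial list. After removal of the coding trend they were, in the same order, 2 and 0, 2 and 3, 1 and 3, 2 and 2, 1 and 4, and 0 and 1.

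**Figure D4:**
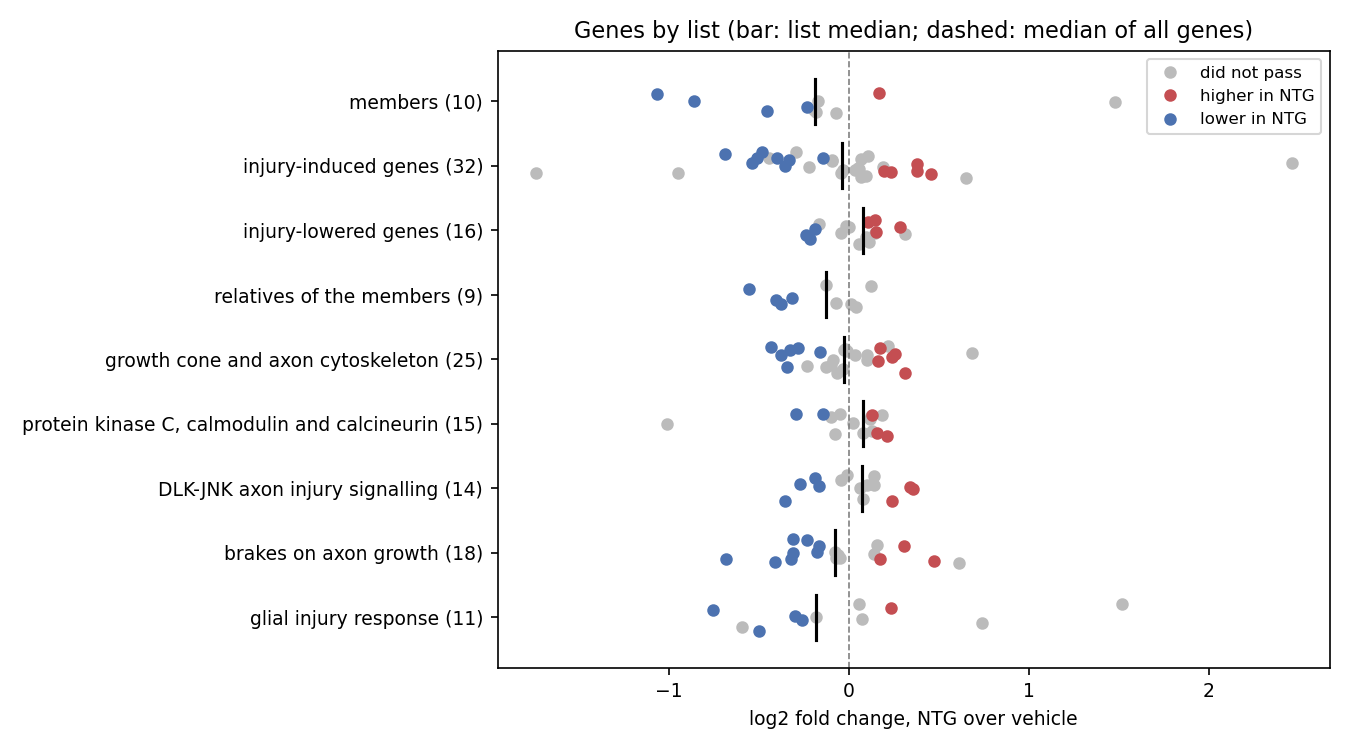
Log2 fold change of NTG over vehicle (x axis) of each tested gene by list (rows, number tested in brackets), coloured where the limma adjusted p was under 0.05 and grey otherwise, with a bar at each list's median. List medians lie between -0.19 for the members and 0.08 for injury-lowered genes.

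Markers of the tissue's cell types moved with the groups to differing degrees. The 10 sensory neuron markers summed to 6500 to 6601 CPM in vehicle and 5917 to 6286 CPM in NTG, and the 8 satellite glia markers to 5389 to 5596 and 4883 to 5061 CPM. None of these markers was at 0 in any library. Both sums were lower in all NTG libraries than in all vehicle libraries. The single markers went both ways, with 2 higher and 4 lower past the threshold among the sensory neuron markers (median log2 fold change -0.08) and 2 higher and 3 lower among the satellite glia markers (median 0.01). On the transcript scale the counts were 1 higher and 3 lower (median -0.07) for neurons and 1 and 1 (-0.08) for satellite glia. On the coding scale they were 1 and 2 (0.01) and 2 and 2 (0.03). The sums in CPM were not adjusted for base composition. Schwann cell markers (13526 to 14954 against 12900 to 14347 CPM) overlapped, as did endothelial and central nervous system glia markers. The 8 macrophage markers summed to 126 to 137 CPM in vehicle and 107 to 120 in NTG, and the 6 fibroblast markers to 1233 to 1375 and 1030 to 1205 CPM. Skeletal muscle markers summed to 9.89 to 18.4 CPM in vehicle and 4.46 to 4.72 CPM in NTG, with Tnnt3 and Tnnc2 at 0 in at least 1 library. The part of cell composition in the differences of the members was not tested.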

How the data were processed

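Messenger RNA of mouse trigeminal ganglia was read in 3 vehicle and 3 NTG libraries, and groups and replicate numbers come from the sample titles. Polyadenylated RNA was made into strand-specific NEBNext Ultra libraries after TRIzol extraction, per the labels' protocols. FastQC, HISAT2 and GRCm38 are named in the submitters' processing notes. How reads were assigned to genes, with or without strand, and which tool scaled them is not given in the sources used here. The deposited signal is a gene count divided by a size factor: 100% of values were whole within 0.01 after division by the worth of 1 read (0.867 to 1.10), so whole reads were recovered. Libraries held 18813027 to 23774244 reads, and 3 reads correspond to 0.126 to 0.159 CPM. Replicates of a group varied beyond counting noise (chi-square over degrees of freedom 3.99 to 7.76). No label calls them separate animals, so a p-value here reflects the spread between these libraries, which may be technical.

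Genes were tested with limma-trend and robust empirical Bayes, two-sided, on the scale log2(value + 1), where 3 or more libraries reached a value of 1 (17475 genes), and p-values were adjusted by Benjamini-Hochberg to a limit of 0.05. This scale understates the change of low genes. From the recovered reads, edgeR's quasi-likelihood test called 4544 genes, against 4512 with limma. Members and lists were chosen with earlier results of these data known. The text names all members, up to 4 genes per list with the smallest p and no overlap between groups (all where 3 or fewer passed), and 3 genes most like Atf3 and Gap43. Gal, Anxa2, Hspb1, Csf1, Tubb3, Stmn1, Stmn3, Gadd45b, Atf5, Nefl and the keratinocyte markers were chosen after their values were seen. GC and length are those of the GENCODE M21 transcript with the longest coding sequence, matched for 16120 genes (92.0%), and each library's smooth trend was removed with mgcv. The removal over the coding sequence was added after seeing the data. Further alternatives were another pseudocount, other filters and scalings, DESeq2, limma-voom, a least fold of 1.2, a block on the replicate number, and each library omitted. Scripts were tested on simulated data. Versions were limma 3.58.1, mgcv 1.9.3, edgeR 4.0.16 and DESeq2 1.42.0 under R 4.3.3, and pandas 2.3.3, matplotlib 3.10.9 and numpy 2.4.6 under Python 3.11.15.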

Additional observations from a re-analysis of the deposited data

How the results depend on the processing

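Against 4512 genes and 5 members past the threshold, removal of the trend over transcript GC and length left 1502 genes and 2 members, removal of the coding trend 1568 and 2, the replicate block with the transcript trend removed 2073 and 3, and a minimum fold of 1.2 left 313 and 1. The cause was not tested. With each library left out in turn, genes past the threshold ranged from 2945 to 4670 as deposited and from 675 to 1570 with the transcript trend removed, and members from 3 to 4 and from 2 to 3. Fewer libraries enter those fits. Deviations of same-numbered libraries correlated at 0.006, -0.099 and 0.028, so the numbers were not taken to pair the libraries. The replicate block alone called 5254 genes (2481 higher, 2773 lower) and 4 members.

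With the transcript trend removed, alone or with the replicate block, the log2 fold change turned to -0.046 for Kcna2, 0.017 for Nefh, -0.082 for Calm2, 0.088 for Calm3, -0.045 for Ppp3r1, 0.047 for Mapk8ip1, 0.057 for Lingo1 and 0.055 for Ptprs. With the coding trend removed it turned to -0.016 for Kcna2, -0.045 for Calm2 and -0.097 for Ppp3r1. The cause was not tested. Over fits with a library left out, with and without the transcript trend, it ranged from -0.0072 to 0.20 for Stmn2, -0.063 to 0.17 for Kcna2, -0.29 to 0.083 for Nefh, -0.45 to 0.014 for Gadd45g, -0.012 to 0.28 for Cdc42, -0.12 to 0.19 for Calm2, -0.18 to 0.10 for Calm3, -0.10 to 0.26 for Ppp3r1, -0.32 to 0.055 for Mapk8ip1, -0.37 to 0.088 for Lingo1 and -0.28 to 0.071 for Ptprs. Changes of pseudocount, filter or scaling turned the direction of no list gene chosen by its p. Depth limits Sprr1a, whose libraries held 0 to 30 reads.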
